A study of Mus musculus with 28 samples.

Results

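Cxcl13 and Cxcl16, a pair of chemokine genes, were followed in microglia sorted from single mouse retinas during endotoxin-induced uveitis (EIU). They are 2 of the 40021 genes in the deposited table, and were chosen by symbol, as B-cell and late chemokines, with their levels in the 4 groups of retinas already known. Those levels are therefore given as a description and without a test. Levels are given as RPKM, reads corrected for transcript length and library size. Genes were tested where 5 or more of the 28 retinas reached an RPKM of 1, which both members and 13164 genes in all did.

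EIU is an acute inflammation of the eye brought on by an intravitreal injection of lipopolysaccharide (LPS), the bacterial endotoxin. All mice were young adult male heterozygotes of the Cx3cr1CreER:R26-tdTomato line on the C57BL/6 background and all received tamoxifen, so the reporter was switched on in cells that use the fractalkine receptor gene, the driver of the Cre. Live tdTomato-high, DRAQ7- cells were sorted from each retina, and their mRNA was amplified and sequenced. The naïve group had 10 retinas (6 from experiment 1 and 4 from experiment 2), and there were 6 retinas at 4 h (3 and 3), 5 at 18 h (4 and 1) and 7 at 2 weeks after LPS (4 and 3). The comparison was with naïve eyes, so LPS and the injection itself cannot be told apart. The labels give the eye side but not which retinas came from the same mouse, so the spread between retinas, on which all p-values rest, may include eyes of the same animal.

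The retinas had from 7510000 to 19700000 alignments. Between 6552 and 11825 genes reached an RPKM of 1 in a retina, and 7 retinas had fewer than 9000 such genes (naïve retinas 3 to 6, 4 h retina 2, 18 h retina 4 and 2-week retina 1). All 12 microglial markers looked at had a median RPKM of at least 1 in every group, with a summed RPKM of 7157 to 14388 in naïve retinas, 1884 to 7041 at 4 h, 1765 to 5560 at 18 h and 7609 to 14220 at 2 weeks. The 12 rod photoreceptor markers were also present, with a summed RPKM of 2526 to 6702 in naïve retinas and 1818 to 2935 at 18 h.

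Chemokines are small secreted proteins that direct the migration of leukocytes along their gradients. CXCL13 binds the receptor CXCR5 and is best known for drawing B cells and follicular helper T cells into the follicles of lymphoid tissue, where its production depends on lymphotoxin and TNF signals through NF-kappa B. CXCL16 binds CXCR6, which is carried by activated T cells, NK cells and NKT cells. Unlike most chemokines it is made as a transmembrane protein, which macrophages also use as a scavenger receptor, and the metalloproteases ADAM10 and ADAM17 cut its soluble form from the cell surface.

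In the GENCODE M21 annotation of the GRCm38 (mm10) genome, Cxcl13 (ENSMUSG00000023078.6) lies on the plus strand of chromosome 5 from 95956951 to 95961068, with 4 exons and a coding transcript of 1150 bases. Cxcl16 (ENSMUSG00000018920.11) lies on the minus strand of chromosome 11 from 70453983 to 70459984, with 5 exons and a coding transcript of 2699 bases. The promoter of Cxcl13 is shown because this gene had the larger change of the pair. The sequence, from RefSeq (GRCm38.p6, plus strand, chr5:95956689-95956988), runs from 250 bases before to 50 bases after the RefSeq start of the gene. Capitals mark the motif matches found in it.
Cxcl13 promoter: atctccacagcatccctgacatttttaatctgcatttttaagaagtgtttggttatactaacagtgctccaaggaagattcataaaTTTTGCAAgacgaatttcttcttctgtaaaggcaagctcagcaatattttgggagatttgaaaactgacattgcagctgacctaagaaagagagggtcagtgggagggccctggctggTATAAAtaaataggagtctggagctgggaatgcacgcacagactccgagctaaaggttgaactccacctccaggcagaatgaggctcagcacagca

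The second run of capitals is a TATA box match (TATAAA, searched on the gene's strand), whose first base is at position -46 from the RefSeq start and which 8.32% of 32851 mouse promoters of the same length hold. The first run is a match to the C/EBP motif on the opposite strand (TTGCNNAA, both strands searched) at position -164, held by 10.8% of promoters. No match was found on either strand to the NF-kappa B consensus (held by 8.46% of promoters), GAS (TTCNNNGAA, 8.3%), the interferon-stimulated response element (3.44%), the PU.1 core (GAGGAA, 28.3%) or AP-1 (TGANTCA, 7.81%). These are letter matches in a short window, and binding was not measured.

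Cxcl13 was close to undetected in naïve microglia and reached the highest level of any CXC chemokine at 18 h. Naïve retinas had between 0 and 3.75 RPKM with a median of 0.206, and naïve retinas 2 to 6, all from experiment 1, were listed at 0. By the number of alignments and the transcript length, 3 reads of Cxcl13 corresponded to 0.132 to 0.347 RPKM, counting error only, so the naïve median lay within that floor. At 4 h the values ran from 0 to 20.2 RPKM with a median of 2.83, and 3 of 6 retinas were above every naïve retina.

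At 18 h the 5 retinas had 264, 1782, 1361, 1300.4 and 1235 RPKM of Cxcl13, and every value was above that of every other retina in the series. Of all genes tested, 2.05% had every 18 h retina above every naïve retina, but the contrast was one by which the gene was chosen and nothing is read from this count. Cxcl13 ranked between 24th and 218th of all genes within these retinas and took 0.0596% to 0.371% of the summed RPKM. Retina 1 was the low one, with the other 4 within 1235 to 1782 RPKM. In RNA from a sorted pool of cells, more RNA per cell and more cells that express the gene cannot be told apart.

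At 2 weeks Cxcl13 lay below the 18 h range and was spread widely, between 1.07 and 88.5 RPKM with a median of 6.57. None of the 7 retinas was listed at 0, and 4 were above every naïve retina. The ranges of 2-week and naïve retinas thus overlapped, and 0.00760% of all genes had every 2-week retina above every naïve retina. On the log2(RPKM + 1) scale, which understates changes of low genes, the group mean of Cxcl13 differed from naïve by 1.26 (SE 0.65) at 4 h, 9.35 (SE 0.69) at 18 h and 2.57 (SE 0.62) at 2 weeks. Ordered by level, naïve, 4 h and 2-week retinas overlapped with their neighbours, and 18 h retinas stood apart from all of them.

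Cxcl16, in contrast, was present in every naïve retina and was already high at 4 h. Its naïve values ran from 6.21 to 42.2 RPKM with a median of 23.2. At 4 h they ran from 150.3 to 288 RPKM with a median of 206, so all 6 retinas were above all naïve retinas, as was so for 1.65% of genes tested. The mean at 4 h was 206 ± 53.9 RPKM (SD, n = 6), which is 9.01 times the naïve mean of 22.9 ± 12.5 (SD, n = 10).

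At 18 h the 5 retinas had 188, 149, 236, 44.7 and 109 RPKM of Cxcl16. All 5 were above the naïve retinas, retina 4 only just, and the mean of 145 ± 73.5 RPKM (SD, n = 5) was 6.36 times that of naïve retinas. The 18 h and 4 h ranges overlapped, with 2 of 5 values at 18 h inside the 4 h range, so the word late describes the course of Cxcl13 and not that of Cxcl16. At 2 weeks the values of 1.07 to 61.1 RPKM (median 29.4) spanned the naïve range.

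The log2(RPKM + 1) differences of Cxcl16 from naïve were 3.29 (SE 0.52) at 4 h, 2.63 (SE 0.56) at 18 h and 0.09 (SE 0.50) at 2 weeks. Between 18 h and 4 h the group means differed by -0.66 (SE 0.62) for Cxcl16 and by 8.10 (SE 0.77) for Cxcl13, whose 18 h retinas were all above its 4 h retinas, as was so for 4.84% of genes tested. In the order naïve, 2 weeks, 18 h and 4 h, the ranges of Cxcl16 overlapped between each pair of neighbours.

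**Figure D1:**
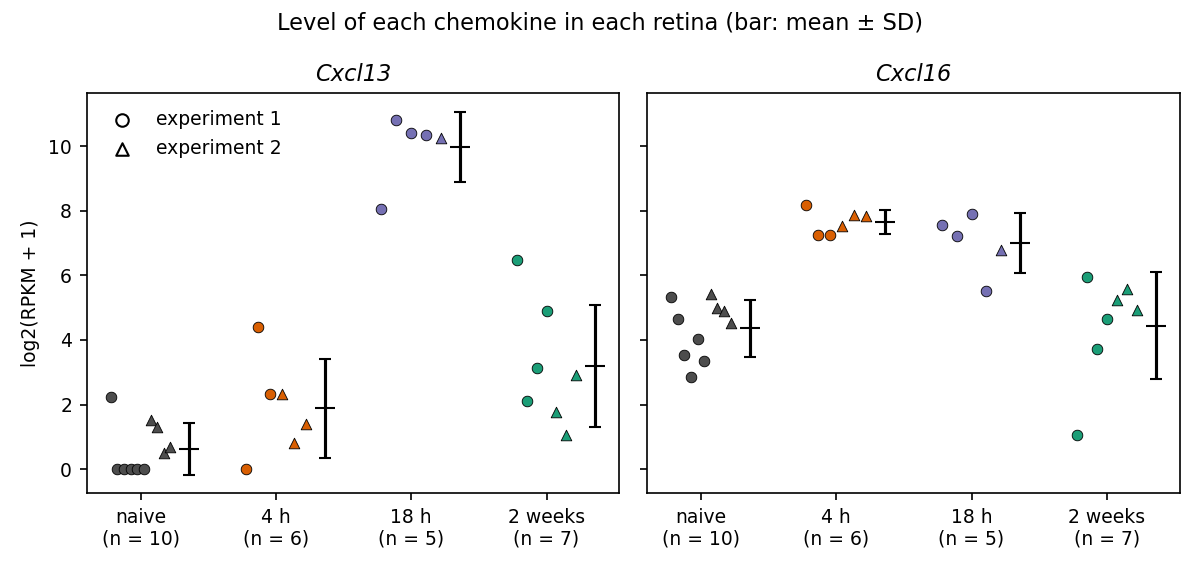
Each point is the log2(RPKM + 1) of Cxcl13 (left) or Cxcl16 (right) in a retina, by group, with circles for experiment 1, triangles for experiment 2, and the mean ± SD beside them. Cxcl13 stands apart at 18 h, where its lowest value is 264 RPKM, whereas Cxcl16 is above all naïve retinas at both 4 h and 18 h.

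The balance between the pair turned over with time. Cxcl13 was below Cxcl16 in all 10 naïve retinas and all 6 retinas at 4 h, where the ratio of Cxcl13 to Cxcl16 was at most 0.133. At 18 h Cxcl13 was the higher in 5 of 5 retinas, by 1.40 to 29.1 times with a median of 11.4. At 2 weeks it was the higher in 2 of 7.

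**Figure D2:**
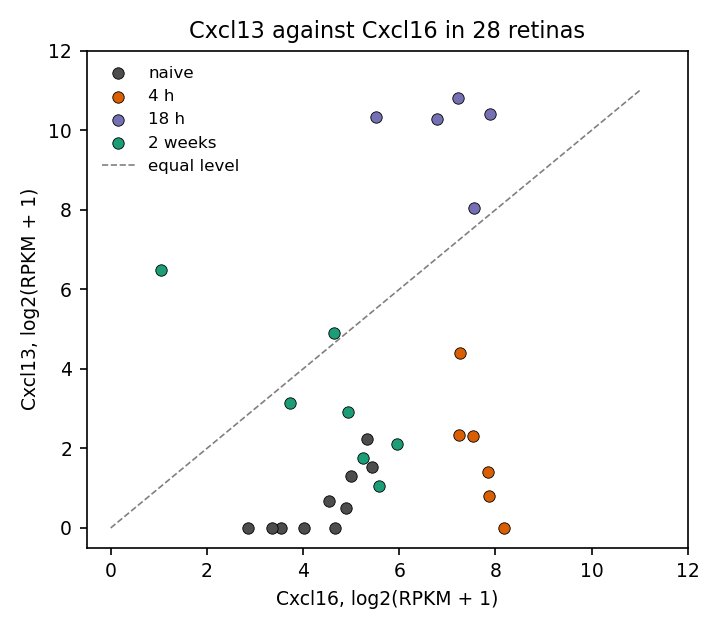
Each point is a retina, with Cxcl16 on the horizontal and Cxcl13 on the vertical axis, both as log2(RPKM + 1). The 5 retinas at 18 h lie above the dashed line of equal level and all naïve and 4 h retinas lie below it.

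Among the 15 CXC ligand genes in the table, Cxcl13 had the highest mean RPKM at 18 h and Cxcl16 the second highest. Cxcl10, the interferon-induced ligand of CXCR3, came next with a mean of 72.0 RPKM. At 4 h the order was different. Cxcl10 led with a mean of 1556 RPKM, Cxcl2, a neutrophil attractant, followed with 227 RPKM, Cxcl16 came in rank 3 and Cxcl13 in rank 8 with a mean of 5.11 RPKM. In naïve retinas Pf4 (CXCL4) was first with a mean of 172 RPKM, Cxcl16 was in rank 2 and Cxcl13 in rank 5, and at 2 weeks the first 3 were Pf4, Cxcl16 and Cxcl13.

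**Figure D3:**
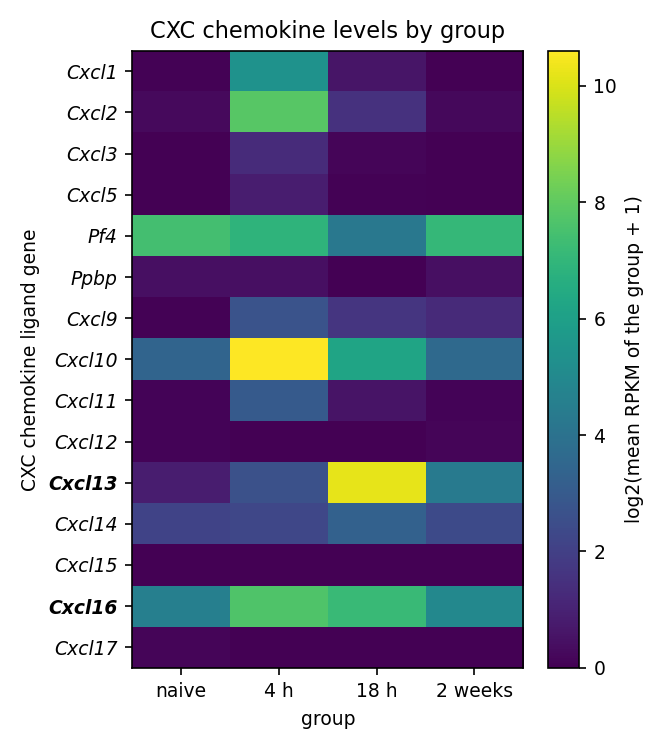
Colour gives log2(mean RPKM of the group + 1) for the 15 CXC ligand genes (rows) in each group (columns), with the names of Cxcl13 and Cxcl16 in bold. The brightest squares are Cxcl10 at 4 h, with a mean of 1556 RPKM, and Cxcl13 at 18 h, with a mean of 1188.5 RPKM.

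The 2 experiments and both eye sides took no part in the choice of the pair and could be tested. For Cxcl13, experiment 2 differed from experiment 1 by 0.62 (SE 0.77) in naïve retinas, -0.73 (SE 0.98) at 4 h and -2.25 (SE 0.92) at 2 weeks on the log2 scale, with adjusted p-values of 0.671, 0.968 and 0.336 (limma, Benjamini-Hochberg over 13164 genes). At 2 weeks this was 3.30 to 88.5 RPKM in the 4 retinas of experiment 1 and 1.07 to 6.57 RPKM in the 3 of experiment 2, with an unadjusted p of 0.0207 in the limma fit. For Cxcl16 the same differences were 1.01 (SE 0.63), 0.19 (SE 0.80) and 1.40 (SE 0.75), with adjusted p-values of 0.361, 0.996 and 0.405.

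None of these passed, whereas 1.79%, 0.258% and 0.0152% of genes tested did in naïve, 4 h and 2-week retinas. The change of Cxcl13 from naïve retinas differed between the experiments, 2 minus 1, by -1.36 (SE 1.25) at 4 h and -2.87 (SE 1.20, unadjusted p = 0.0237) at 2 weeks, and for Cxcl16 this difference was -0.81 (SE 1.02) and 0.40 (SE 0.98). None of these passed (adjusted p = 1 by limma), at a test that 0.0988% of genes passed at 4 h and 0.00% at 2 weeks. In experiment 2 alone, Cxcl13 differed from naïve by 0.91 at 2 weeks. At 18 h experiment 2 gave a single retina, with 1235 RPKM of Cxcl13 and 109 of Cxcl16, both inside the range of experiment 1. Within experiment 1, the ranges of Cxcl13 were 0 to 3.75 RPKM in naïve retinas, 0 to 20.2 at 4 h, 264 to 1782 at 18 h and 3.30 to 88.5 at 2 weeks. Right and left eyes differed by 0.23 (SE 0.49) for Cxcl13 and -0.74 (SE 0.37) for Cxcl16, right minus left, and neither passed (adjusted p = 0.913 and 0.807 by limma, with 0.00% of genes called).

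Retinas with few genes detected differed from the others of their group in several of these values, but not in 1 direction. The 4 naïve retinas with fewer than 9000 genes had 6.21 to 15.3 RPKM of Cxcl16 and were listed at 0 for Cxcl13, while the other 6 had 22.2 to 42.2 and 0 to 3.75 RPKM. The retina with few genes had the lowest Cxcl16 at 18 h (44.7 RPKM) and at 2 weeks (1.07 RPKM). At 4 h it had 152 RPKM, just above the lowest of 150.3. For Cxcl13 such retinas had instead the highest value at 4 h (20.2 RPKM) and at 2 weeks (88.5 RPKM), and the median value at 18 h (1300.4 RPKM). The part of library quality in these values was not tested. Without the 7 retinas, Cxcl13 at 18 h was 264 to 1782 RPKM against 0 to 3.75 in naïve retinas, and Cxcl16 at 4 h was 150.3 to 288 against 22.2 to 42.2. The log2 difference of Cxcl13 from naïve became 0.33 at 4 h and 1.61 at 2 weeks, from 1.26 and 2.57 with all retinas. It was 0.75 at 4 h without 4 h retina 2 alone.

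**Figure D4:**
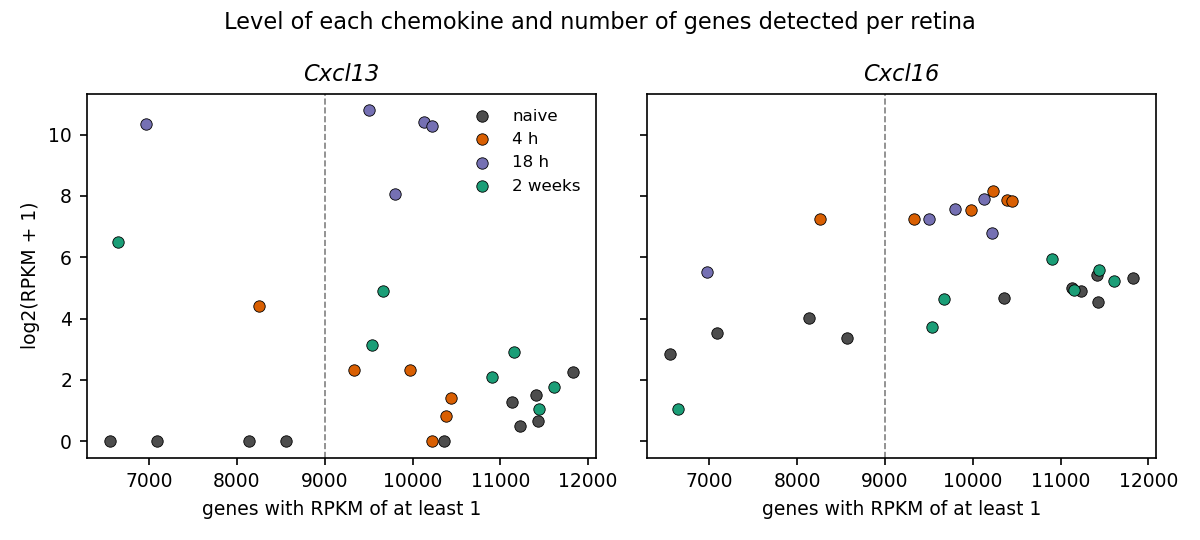
The log2(RPKM + 1) of Cxcl13 (left) and Cxcl16 (right) is plotted against the genes detected at 1 RPKM or more in each retina, with groups in colour and a dashed line at 9000 genes. The 4 naïve retinas left of the line have the lowest naïve levels of Cxcl16, at 6.21 to 15.3 RPKM.

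The sum of T, NK and NKT cell transcripts was highest at 18 h, as was Cxcl13. For 12 markers the summed RPKM was 0.0261 to 1.12 in naïve retinas, 0.0206 to 5.33 at 4 h, 9.92 to 267 at 18 h and 0.117 to 8.29 at 2 weeks. At 18 h the defining T cell genes Cd3e, Cd3d and Cd3g were at most 0.297, 1.42 and 0.767 RPKM. Each was listed at 0 in all naïve retinas. The leading marker at 18 h was Gzma, the granzyme A gene of cytotoxic lymphocytes, in retinas 2, 4 and 5. In retinas 1 and 3 it was Trac, a constant gene of the T cell receptor, at 4.07 and 11.3 RPKM. Trac was also at 6.83 RPKM in retina 2. Cd8a was at 9.95 RPKM in retina 4 and at most 0.658 in the other 18 h retinas. Gzma was at 0, 23.0, 0, 238 and 54.7 RPKM in the 5 retinas in order. Of the 2 retinas with Gzma listed at 0, retina 1 had the lowest Cxcl13 (264 RPKM) and retina 3 had 1361 RPKM. Nkg7, another gene of these cells and not among the 12, was at 5.77, 35.5, 11.9, 86.4 and 12.1 RPKM, the lowest in retina 1. Of the genes tested, Nkg7 had the pattern most like that of Cxcl13 over all retinas. Its values beside Cxcl13 are therefore not read as separate evidence. The summed markers of retina 4 (267 RPKM) exceeded its Cxcl16 (44.7 RPKM), and this retina, with the highest Gzma, had the lowest Cxcl16. It was also the 18 h retina with the fewest genes detected (6969). Retinas with few genes had the lowest Cxcl16 among naïve and 2-week retinas as well, where Gzma was listed at 0. The part of either in the low Cxcl16 of retina 4 was not tested.

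The 12 B-cell markers summed to 81.5 to 282 RPKM in naïve retinas and to 36.6 to 108 at 18 h, not higher than naïve. Cd79a, Pax5, Blk and Igkc were listed at 0 in all 5 retinas at 18 h, and most of the sum came from Cd79b and Ighm. The 10 monocyte markers summed to 144 to 320 RPKM at 18 h against 9.86 to 57.1 in naïve retinas, led by Ms4a4c at 134 to 315 RPKM. For the 12 border macrophage markers the sum was 35.6 to 101 RPKM at 18 h and 12.5 to 660 in naïve retinas. For the 11 neutrophil markers listed it was 2.86 to 29.1 and 5.6 to 83.0, led by Csf3r in both groups. S100a8, S100a9, Retnlg, Mmp8 and Camp were listed at 0 in all 10 naïve retinas. At 18 h S100a8 was at 0, 3.07, 9.24, 0 and 0.638 RPKM in the 5 retinas in order. S100a9 was at 0.994, 2.55, 5.15, 0 and 0 RPKM. In retinas 2 and 3 Mmp8 was at 2.30 and 1.32 RPKM, Camp at 3.28 and 0.818 and Retnlg at 0.729 and 0.510. In the other 18 h retinas Mmp8, Camp and Retnlg were listed at 0. Ngp and Ltf were listed at 0 in all 5. The part of T, NK and NKT cells, of monocytes or of neutrophils in the level of either chemokine was not tested.

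The genes around this pair were counted in 6 lists of receptors, sheddases and signals, 47 genes in all, of which 45 were listed in the table and 28 tested. A gene passed at an adjusted p of at most 0.05 with a fold change of at least 2 (limma). The lists were drawn up with earlier results of these data known, and Cxcr5 and Ccr7 reached the filter through their 4 h retinas. No conclusion is therefore drawn from the shares set against all genes, here or for the single lists below. At 4 h 12 of the 28 were higher than in naïve retinas and 3 lower, or 53.6% against 8.08% of all genes tested (3.68% higher and 4.39% lower), with a median log2 difference of 0.78 against -0.11. At 18 h 2 were higher and none lower, or 7.14% against 4.69% (2.84% higher and 1.85% lower), with a median of -0.11 against -0.08. None passed at 2 weeks, as compared with 0.00760% of all genes. Between 18 h and 4 h 1 was higher at 18 h and 10 were lower, or 39.3% against 5.42% (2.92% higher and 2.51% lower), with a median of -0.72 against 0.02. The 2 genes that passed at 18 h were Tnf and Ccr7.

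**Figure D5:**
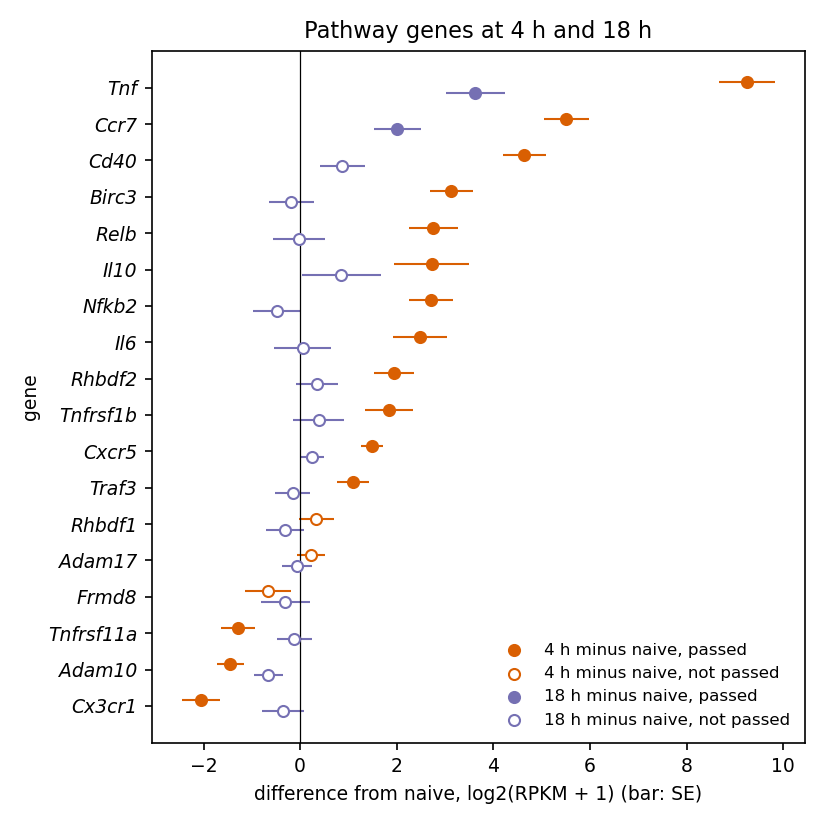
Points give the log2(RPKM + 1) difference from naïve retinas at 4 h and at 18 h for the genes of these lists that are named in the text, bars give the SE, and filled points passed the test. Of the genes that passed at 4 h, Tnf and Ccr7 also passed at 18 h.

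The receptor Cxcr5, through which CXCL13 acts, rose in the microglial libraries at 4 h and not at 18 h, when its ligand was high. It was between 1.16 and 3.77 RPKM at 4 h, and between 0 and 0.729 in naïve retinas. The difference was 1.48 (SE 0.23, adjusted p = 2.7e-05). At 18 h the retinas had 0.234, 0.133, 2.39, 0.0264 and 0.186 RPKM (difference from naïve 0.24, SE 0.24, adjusted p = 0.668). The fall from 4 h to 18 h, by 1.24 on the log2 scale, passed the test (adjusted p = 0.00362). Cxcr5 would not have reached the filter without its 4 h retinas, so neither p-value that involves 4 h is read as separate evidence. Cxcr6, the receptor of CXCL16, was too low to be tested. It was listed at 0 in all 6 retinas at 4 h and had 3.45, 0, 0.107, 0.0912 and 0.504 RPKM at 18 h.

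Of the 5 genes that act in the shedding of CXCL16, Adam10 fell at 4 h. It had 10.1 to 15.1 RPKM at 4 h and 19.0 to 82.8 in naïve retinas, with no overlap, as was so for 1.42% of genes tested (difference -1.44, SE 0.28, adjusted p = 0.000605). The call was lost in experiment 1 alone (adjusted p = 0.106 by limma). At 18 h the Adam10 values of 17.1 to 37.6 RPKM overlapped with naïve retinas (adjusted p = 0.233). Adam17, the other sheddase, was at 5.92 to 15.5 RPKM at 4 h and 6.33 to 17.5 in naïve retinas (difference 0.22, SE 0.29, adjusted p = 0.736). Rhbdf2 (iRhom2), which carries ADAM17 to the cell surface, rose at 4 h, from a median of 0.171 to 2.93 RPKM (difference 1.95, SE 0.41, adjusted p = 0.00148). Its relative Rhbdf1 and Frmd8, which stabilises the iRhoms, had differences of 0.33 and -0.66 at 4 h (adjusted p = 0.667 and 0.477).

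Fractalkine is the other transmembrane chemokine, and Cx3cr1 its receptor. Its gene Cx3cl1 was too low to be tested, with a mean of 0.206 RPKM at 18 h. Cx3cr1 was between 6.37 and 35.5 RPKM at 4 h against 45.2 to 318 in naïve retinas, a fall of all 6 retinas below the naïve range (difference -2.05, SE 0.40, adjusted p = 0.000688). At 18 h it had 43.0 to 98.2 RPKM, and did not pass against naïve retinas (adjusted p = 0.725). It was the gene that was higher at 18 h than at 4 h (difference 1.69, adjusted p = 0.0271), a call lost, with an adjusted p of 0.0556 to 0.0868, without 4 h retina 2 or 3 or without 18 h retina 1, 3 or 5. Cx3cr1 drives the Cre in these mice, which carry an intact copy as heterozygotes.

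The lymphotoxin and non-canonical NF-kappa B list had 7 of 14 tested genes higher at 4 h and 1 lower, where 3.68% and 4.39% of all genes tested were. The list was drawn up with earlier results of these data known, so nothing is read from this count. Tnf, the inflammatory cytokine, was at 291 to 3291 RPKM at 4 h, with a median of 0.364 in naïve retinas (difference 9.26, SE 0.58, adjusted p = 4.6e-13). At 18 h it had 49.5, 8.98, 39.2, 21.2 and 9.94 RPKM, still above all naïve retinas (difference 3.62, SE 0.61, adjusted p = 0.000261). Cd40, a receptor that activates the non-canonical pathway, rose at 4 h to between 6.20 and 84.7 RPKM (difference 4.64, SE 0.44, adjusted p = 4.2e-09).

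Birc3, Nfkb2 and Relb, an inhibitor of the pathway and its p100 and RelB subunits, rose at 4 h by 3.13, 2.70 and 2.75 on the log2 scale (adjusted p = 5.6e-06, 9.0e-05 and 0.000323). The TNF receptor gene Tnfrsf1b rose by 1.84 (adjusted p = 0.0138), and the call was lost without 4 h retina 1 (0.0579). Traf3, another inhibitor, rose by 1.10 (adjusted p = 0.0344) and lost the call, with an adjusted p of 0.0507 to 0.0935, without any of naïve retinas 1 to 4 or 4 h retinas 1, 4 and 5. Tnfrsf11a, the receptor RANK, fell by 1.29 (adjusted p = 0.0129), and lost the call without 4 h retina 3 (0.0509). At 18 h, all of these but Tnf were short of the threshold, with Cd40 at an adjusted p of 0.342. The lymphotoxin genes Lta and Ltb were too low to be tested at a mean of at most 0.606 RPKM in naïve, 4 h and 18 h retinas, and Ltbr, which encodes their receptor, did not pass (adjusted p = 0.814 at 4 h and 0.772 at 18 h).

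Of the 9 lymphoid-tissue chemokines and receptors, Ccr7 and Ccr6 could be tested, and Ccr6 did not pass at 4 h or 18 h (adjusted p = 0.147 and 0.917). Ccr7, the receptor that guides cells to lymph nodes, was listed at 0 in all 10 naïve retinas and was at 15.9 to 180 RPKM in all 6 at 4 h (adjusted p = 2.5e-10). It would not have reached the filter without these 6 retinas, so this p-value is not read as separate evidence. At 18 h the 5 values were 12.2, 1.57, 14.7, 0 and 1.03 RPKM (adjusted p = 0.0109), and the call was lost without 18 h retina 1 or 3 (adjusted p = 0.0808 and 0.0831). Cxcl12, Ccl19 and Ccl21a, which with Cxcl13 organise lymphoid tissue, had means of at most 0.145 RPKM in naïve, 4 h and 18 h retinas.

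Among the 9 B-cell survival and growth factors, 5 were tested (Il6, Il10, Tnfsf13, Tnfsf13b and Tgfb1). Il6 rose at 4 h by 2.48 (adjusted p = 0.00291), a call lost in experiment 1 alone (adjusted p = 0.150). Il10 differed by 2.72 (adjusted p = 0.0199), a call lost without 4 h retina 5 or 6 (adjusted p = 0.105 and 0.094). At 4 h Il10 was at 0 to 0.837 RPKM in the 3 retinas of experiment 1 and 3.42 to 148 in the 3 of experiment 2. Its log2 change differed, experiment 2 minus 1, by 4.82 (SE 1.10), which did not pass (adjusted p = 0.0897 by limma). None of the 5 passed at 18 h. Tnfsf13b, which encodes the B-cell survival factor BAFF, had a mean of 35.6 ± 16.1 RPKM at 18 h (SD, n = 5) and 19.2 ± 8.0 in naïve retinas (SD, n = 10), a difference of 0.95 (SE 0.42) that did not pass (adjusted p = 0.222 by limma).

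Of the genes tested, those with the pattern most like each member were found by the root-mean-square difference of their standardised log2 values over the 28 retinas, where 0 is an identical pattern. The nearest to Cxcl13 were Nkg7 (0.482), Wfdc21 (0.492), Saa3 (0.494), Bst2 (0.503) and Fcgr4 (0.521), against a median of 1.46 over all genes. Each had its highest mean at 18 h, such as 5826 RPKM for Saa3, an acute-phase protein. Nkg7 and Wfdc21 would not have reached the filter without their 18 h retinas. The nearest to Cxcl16 were Slfn2 (0.365), Batf (0.383), Cdkn1a (0.433), Ccl4 (0.463) and Trex1 (0.463), against a median of 1.32. These had their highest mean at 4 h, such as 27514 RPKM for Ccl4, a chemokine for monocytes and T cells. The measure includes the group means, by which the members were chosen, so a shared course over the groups is not read as separate evidence.

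When the mean of each group was first subtracted, so that only the spread within groups counted, none of the genes above remained among the nearest. The genes nearest to Cxcl13 were Mrps25, Gm17139, Zbtb10, Papd7 and Hemk1, at 0.757 to 0.867. For Cxcl16 they were Atp6v0c, Uqcrc1, Psmd8, Slc25a4 and Xbp1, at 0.301 to 0.390, closer than any gene was to Cxcl13. They encode a proton pump subunit, a respiratory chain subunit, a proteasome subunit, a mitochondrial nucleotide carrier and a transcription factor of the unfolded protein response.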

How the data were processed

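The members and gene lists were chosen with earlier results of these data known. The authors trimmed the reads, aligned them to mm10 with STAR 2.5.3a, quantified Ensembl transcripts in Partek by expectation maximisation and deposited an RPKM value per gene and retina. Reads shared by transcripts are split by that estimation, which may yield zeros and tiny values, and the library kit keeps no strand. All per-sample columns of the table were used. Other deposited tables hold the authors' own comparisons of 4 h and 18 h retinas with naïve retinas and were not used.

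Values were transformed to log2(RPKM + 1), with a pseudocount of 1. Genes that reached an RPKM of 1 in 5 or more retinas were tested with limma 3.58.1 in R 4.3.3, in 1 fit of the 4 groups with a mean-variance trend, with Benjamini-Hochberg adjustment over all 13164 genes. Differences between the experiments came from a fit of each group in each experiment, and the eye side was added as a term to the 4 groups. The fits were tested on simulated data. Depth is known only as alignments per retina, from 7510000 to 19700000. Named genes were the 2 members, every gene of the receptor, sheddase and fractalkine lists, up to 12 genes of the other lists that passed in a comparison with naïve retinas, and the 5 genes most like each member by each measure. Ltbr, Lta, Ltb, Ccr6, Tnfsf13, Tnfsf13b, Tgfb1, Cxcl12, Ccl19, Ccl21a and the other CXC ligands were named after their values were seen. Alternatives were other pseudocounts, filters, scalings, covariates and a replicate block, single experiments, each retina left out, and an ANOVA on untransformed RPKM. Figures were drawn with matplotlib 3.10.9 in Python 3.11.15.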

Additional observations from a re-analysis of the deposited data

Results flagged for a closer look

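A retina was singled out when its gap to the nearest of its group, as a share of the group's range, passed Dixon's 95% limit. For normally distributed values chance alone passes that limit in about 1 of 20 groups. RPKM was used here without a log transform and with values at 0, so the chance rate is not known. Over 88 groups (22 named genes in 4 groups) a retina was singled out 28 times, 3 of them for Cxcl13 and none for Cxcl16. This count is therefore not read as an excess. For Cxcl13 they were naïve retina 1 (3.75 RPKM, others 0 to 1.88), 4 h retina 2 (20.2 RPKM, others 0 to 4.03) and 2-week retina 1 (88.5 RPKM, others 1.07 to 29.1).

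Naïve retina 1, which had the most genes detected of all retinas (11825), also stood apart for Adam17 (17.5 RPKM), Rhbdf2 (3.98), Frmd8 (14.4), Cx3cl1 (3.99), Cx3cr1 (318), Nfkb2 (7.04), Relb (8.69) and Tnfrsf1b (24.5). The other naïve flags were Adam10 in retina 3 (82.8 RPKM), Cd40 in retina 7 (1.79) and Il10 in retina 8 (0.604). At 4 h they were Rhbdf2 (20.8 RPKM), Birc3 (89.2) and Relb (61.8) in retina 1 and Cx3cl1 (1.10) in retina 5.

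At 18 h the receptor genes stood out in different retinas, with Cxcr5 at 2.39 RPKM in retina 3 (others 0.0264 to 0.234) and Cxcr6 at 3.45 RPKM in retina 1 (others 0 to 0.504), and Tnfrsf11a was at 13.5 RPKM in retina 4. At 2 weeks they were Cxcr6 (2.27 RPKM) in retina 7, Birc3 (26.1) in retina 1, Ccr7 (0.0518) in retina 6, and Tnf (13.2), Cd40 (1.51), Relb (6.55) and Tnfrsf1b (18.6) in retina 5.

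The change of Cd40 at 4 h differed between the experiments. In experiment 1 it was listed between 0 and 0.0618 RPKM in naïve retinas and 67.9 to 84.7 at 4 h, and in experiment 2 between 0.112 and 1.79 and between 6.20 and 15.9. The log2 change differed, experiment 2 minus 1, by -3.30 (SE 0.63, adjusted p = 0.0267 by limma), and 0.0988% of genes tested passed this test.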

How the results depend on the processing

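Of 78 differences of Cxcl13 and Cxcl16 from naïve retinas under 13 alternatives, 73 moved by less than 1 SD. The exceptions were Cxcl13 at 18 h and 2 weeks, with log2 differences of 11.43 and 4.36 at a pseudocount of 0.1 and of 6.57 and 0.99 at a pseudocount of 10, and 0.91 at 2 weeks in experiment 2 alone. Leaving out each retina gave 0.75 to 1.63 for Cxcl13 at 4 h, 9.15 to 9.83 at 18 h and 2.02 to 2.93 at 2 weeks. For Cxcl16 the ranges were 3.12 to 3.41, 2.41 to 3.00 and -0.17 to 0.65, the last without 2-week retina 1. The cause of these shifts was not tested, other than that a pseudocount changes low values most.

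The 15 pathway genes called at 4 h became 6 in experiment 1 alone and 9 by ANOVA on untransformed RPKM, and 13 to 15 with a retina left out. The 2 called at 18 h became 1 at a pseudocount of 10 and in experiment 1 alone, and 0 in experiment 2 alone and by ANOVA, and 1 to 2 with a retina left out. The 11 called between 18 h and 4 h became 7 without a filter and 5 in each experiment alone. With a retina left out they were 7 to 12, the fewest without 18 h retina 1. Rescaling to equal summed RPKM moved the median of all genes from -0.11 to -0.28 at 4 h and from -0.08 to -0.26 at 18 h. Of 27 calls of single named genes, 19 held without each retina and 9 held in every fit.

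No difference of either member between experiments or eyes passed in any fit. Without the 7 retinas of fewer than 9000 genes, an alternative chosen after seeing the data, the experiment difference turned to -0.13 for Cxcl13 and -0.024 for Cxcl16 in naïve retinas and to 0.35 for Cxcl13 at 4 h. The eye difference of Cxcl13 turned to -0.37 without these retinas and to -0.40 in experiment 2 alone. With a retina left out, the experiment difference of Cxcl13 at 4 h ran from -1.86 to 0.35 and its eye difference from -0.0076 to 0.42.

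Whether the replicate numbers pair the retinas could not be settled. The correlation of deviations between same-numbered retinas of different groups was -0.329 to 0.698 over 34 pairs (median 0.0352). It was above 0.1 in 15 pairs, and 7 of 28 retinas correlated best with their own number. With a replicate block the difference at 18 h was 9.29 for Cxcl13 and 3.02 for Cxcl16, and no difference between experiments or eyes passed.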
